A study of Piaractus mesopotamicus with 9 samples.

Results

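The microRNA miR-551 was followed in cultured myotubes of pacu (Piaractus mesopotamicus), the fused muscle cells that form from the myoblasts of this South American fish, by small RNA sequencing. Its members were all entries of the normalised table whose name, without the species prefix, is miR-551. There were 4 such entries of 1769, and ccr-miR-551 (carp) and ssa-miR-551-3p (salmon) held the same value in all 9 libraries, so 3 distinct count profiles of 953 were described: ccr-miR-551, ipu-miR-551 (channel catfish) and ssa-miR-551-5p (salmon). Profiles that differ only slightly still count as distinct, and many hold the same miRNA number under several species names. Shares, ranks and medians over the 953 profiles therefore give such miRNAs more weight. The family was chosen by values of these same libraries, namely the difference of ssa-miR-551-5p in normalised counts between AA and CTR. That contrast, and AA against IGF1, which shares the AA libraries, are therefore given as a description with no p-value, and where counts past the thresholds are given for them, the choice had favoured them and nothing is read from them.

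Cells came from pacu fast-twitch muscle and were grown for 8 days. The CTR group was then kept in amino acid-free medium for 36 h. The AA group was kept in that medium for 12 h and then received amino acids, given as DMEM, a medium whose base also differs. The IGF1 group was kept in it for 12 h and then received recombinant sea bream insulin-like growth factor 1 without amino acids. The treatment protocol gives 24 h for both supplements, while the sample characteristics give 12 h. All groups shared the initial deprivation. Each group had 3 libraries with replicate numbers 1 to 3. The study states 3 independent cultures, each from many juvenile fish, without saying which culture gave which library, so that p-values measure the spread between these libraries.

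A miRNA gene is transcribed as a hairpin, and both arms of the hairpin can give a mature miRNA, named 5p and 3p. A mature strand held by an Argonaute protein pairs with messenger RNAs through its seed, the bases near its 5′ end, and lowers their translation or stability. The arms of 1 hairpin have different seeds and so different targets, and they can be kept at very different levels although they are made together. miR-551 is a vertebrate family that in human has the genes miR-551a and miR-551b, studied mostly in tumour cells. It is not counted among the muscle-specific miRNAs, such as miR-206 and miR-133. Mature sequences were not used here, so the entries are known by name only. No member had a zebrafish entry, and reads of pacu were matched to the miRNAs of other teleosts.

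The 3 members were scarce. ccr-miR-551 had a mean of 128 normalised counts over the 9 libraries (rank 728 of 953 distinct profiles), ipu-miR-551 had 82.9 (rank 770) and ssa-miR-551-5p had 27.0 (rank 877), against a median of 1543 over all profiles. These are counts divided by 1 size factor per library. One read spans a whole mature miRNA, so levels were compared without a correction for length. Before normalisation ssa-miR-551-5p rested on 8 to 83 reads per library, ipu-miR-551 on 25 to 177 and ccr-miR-551 on 37 to 317. The libraries held 7627252 to 12908097 counts over zebrafish entries, summed for 1 species since entries of several species can hold the same values, and had size factors of 0.695 to 1.36. CTR replicate 3 was the shallowest.

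The count table held 10 miR-551 entries from 9 species, of which 6 fell below the filter of a mean of 10 counts. Just inside the filter, ssa-miR-551-5p had a mean of 29.0 counts. Just outside it, gmo-miR-551-3p (cod) had a mean of 0.556, with 5 reads in 3 of the 9 libraries. The other 5 entries had no count in any library. For counting error alone this allows an expected total of about 3 reads per entry over the 9 libraries. The family was thus seen through the carp, salmon and catfish names, and the counts do not show which of these sequences pacu carries.

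The myotube label was checked against marker miRNAs. All 4 muscle-specific numbers were present, with summed normalised counts (the highest profile of each number) of 4461 to 7184 in CTR, 15089 to 27162 in AA and 7349 to 10281 in IGF1. The endothelial miR-126 had 8473 to 10805 over all libraries. In CTR it had 9372 to 9929, above the muscle-specific sum of that group. Lists for red blood cells (1 of 2 numbers past the filter, 43.3 to 159), white blood cells (1 of 2, 21.1 to 167), neurons (2 of 2, 113 to 172) and epithelium (2 of 3, 53.7 to 92.1) were low beside these. They were not low beside miR-551, whose profiles had means of 128, 82.9 and 27.0. Which cells gave the miR-551 reads was not tested. In such bulk libraries fewer cells of a type and less RNA per cell cannot be told apart.

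The 5p arm was highest in AA. ssa-miR-551-5p had 12.5, 7.37 and 14.4 normalised counts in CTR replicates 1, 2 and 3. It had 61.0, 43.9 and 41.2 in the AA replicates. It had 26.6, 22.1 and 14.1 in the IGF1 replicates. Every AA library lay above every other library, and the lowest IGF1 library lay within the CTR range. Over all profiles, 7.24% had every AA library above CTR and 5.67% had every AA library above IGF1, and nothing is read from these shares since AA chose the family. The CTR mean was 11.4 ± 3.63, the AA mean 48.7 ± 10.8 and the IGF1 mean 20.9 ± 6.29 (SD, n = 3).

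The AA mean was 4.27 times the CTR mean and 2.32 times the IGF1 mean. Within replicate numbers 1, 2 and 3 the AA to CTR ratios were 4.89, 5.96 and 2.86, and the AA to IGF1 ratios were 2.30, 1.98 and 2.91. With edgeR the log2 fold change was 2.13 (SE 0.35) for AA against CTR and 1.21 (SE 0.31) for AA against IGF1. Over all 953 profiles the median log2 fold changes of these contrasts were -0.04 and -0.06. For AA against CTR 1 member, ssa-miR-551-5p, was past the thresholds (0.05 for the adjusted p, 0.55 for the absolute log2 fold change), beside 2.31% of all profiles with edgeR, and 1 with DESeq2, beside 2.83%. This count was fixed by the choice of the family and supports nothing. For AA against IGF1 0 members were called with edgeR, beside 2.1% of profiles. With the replicate number as a block (replicate block) ssa-miR-551-5p was past both thresholds there (log2 fold change 1.21, background 4.83%), and with DESeq2 as well (background 2.94%), which is likewise only a description, since the AA libraries are the ones that chose it. The summed muscle-specific miRNAs were also highest in AA, and their part in the difference was not tested.

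**Figure D1:**
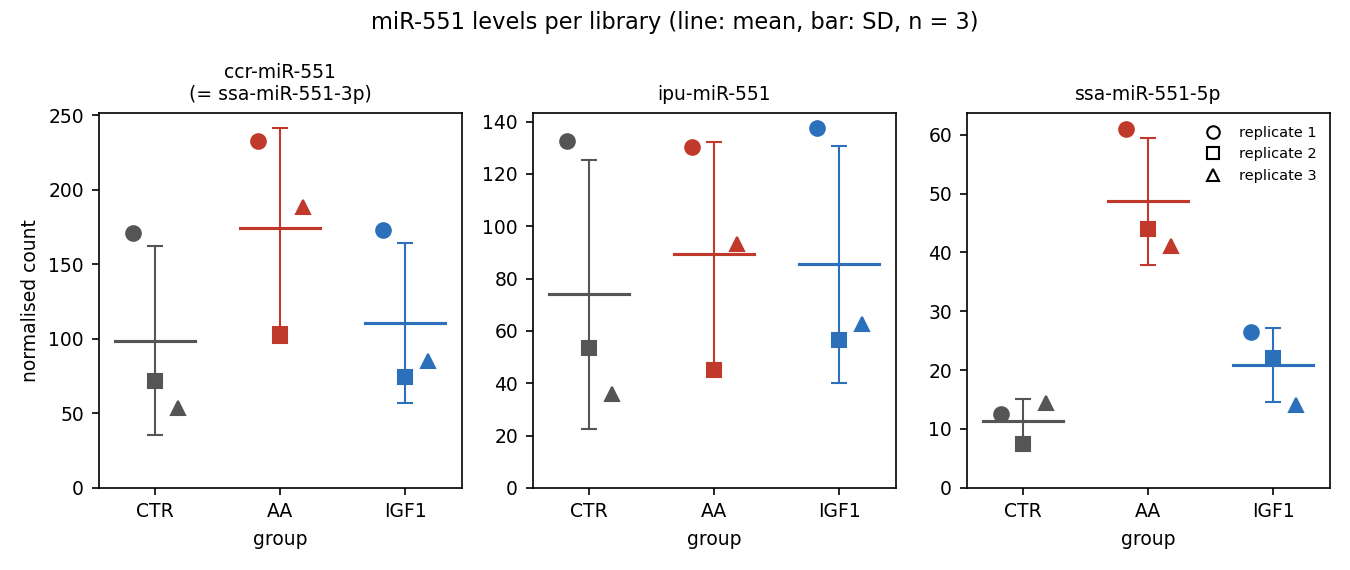
Normalised counts of the 3 miR-551 profiles (y axis, linear from 0) in the CTR, AA and IGF1 groups (x axis), with symbols for the replicate number, lines for the mean and bars for the SD (n = 3). The AA libraries of ssa-miR-551-5p (41.2 to 61.0) sit above all others, while for ccr-miR-551 and ipu-miR-551 the replicate 1 library is the highest of each group.

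IGF1 was compared with CTR to ask whether the hormone alone moved the miRNA. This contrast did not choose the family, although it shares the CTR libraries with the one that did. That choice favoured low CTR values of ssa-miR-551-5p, so its difference, interval and p-values here are not free of it. Of the 3 profiles 0 were called, beside 0.21% of all profiles with edgeR, and also 0 with the replicate block, beside 1.57%, and with DESeq2, beside 1.15%. The libraries of the groups overlapped in all 3, where 6.93% of profiles had every IGF1 library above CTR. For ssa-miR-551-5p the log2 fold change was 0.92 (SE 0.37, 95% interval 0.10 to 1.74) with an adjusted p of 0.597 in edgeR's quasi-likelihood test. It was higher in IGF1 than in CTR at the mean by 1.83 times, with ratios of 2.13, 3.00 and 0.983 in replicate numbers 1, 2 and 3. Its unadjusted p was 0.0307, as it was under 0.05 for 73 of the 953 profiles, and it was 0.761 for ccr-miR-551 and 0.727 for ipu-miR-551. The adjusted p of ssa-miR-551-5p ran from 0.207 to 0.989 over the alternatives that kept all libraries (0.216 with the replicate block) and from 0.476 to 0.998 with 1 library left out. The interval, which is not adjusted for the number of profiles, reaches from almost no difference to more than a tripling.

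Within each group the 3p arm was highest in the library numbered 1. ccr-miR-551, which holds the counts of ssa-miR-551-3p, had 171, 71.9 and 53.3 normalised counts in CTR replicates 1, 2 and 3. It had 233, 102 and 189 in the AA replicates. It had 173, 74.4 and 84.9 in the IGF1 replicates. Replicate 1 was the highest library of each group, and the 3 groups overlapped. The CTR libraries averaged 98.7 ± 63.3, the AA libraries 174 ± 66.8 and the IGF1 libraries 111 ± 53.9 (SD, n = 3).

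The profile of ipu-miR-551, whose name gives no arm, had the same shape. It had 133, 53.4 and 36.0 normalised counts in CTR, 130.1, 45.0 and 93.2 in AA, and 137.5, 56.3 and 62.5 in IGF1. The 3 libraries numbered 1 lay between 130.1 and 137.5, above all others. The means of CTR, AA and IGF1, 74.0 ± 51.5, 89.4 ± 42.7 and 85.4 ± 45.2 (SD, n = 3), differed by less than the spread between replicates. Over the 9 libraries its log2 values correlated with those of ccr-miR-551 at 0.911, and at 0.997 after the group means were removed, as a description of entries that may share reads. The same values for ssa-miR-551-5p and ccr-miR-551 were 0.615 and 0.355.

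For AA against CTR the log2 fold change was 0.81 (SE 0.47) for ccr-miR-551, past the fold threshold but not called, and 0.27 (SE 0.52) for ipu-miR-551. That of ccr-miR-551 was 0.53, under the fold threshold, without CTR replicate 3 and 1.51 without CTR replicate 1. Within replicate numbers 1, 2 and 3 the AA to CTR ratios of ccr-miR-551 were 1.36, 1.42 and 3.54. The last one was against CTR replicate 3, the shallowest library, and the part of its depth was not tested. With the replicate block ccr-miR-551 was also past both thresholds (log2 fold change 0.85), beside 3.88% of all profiles, and it was not when the block was fitted on distinct profiles. For ipu-miR-551 the AA to CTR ratios were 0.982, 0.842 and 2.59, so that AA was the higher group in replicate number 3 and the lower one in numbers 1 and 2. Its log2 fold change was -0.043 without CTR replicate 3 and -0.094 without AA replicate 1, and it was 1.03 without CTR replicate 1. For AA against IGF1 the log2 fold change was 0.66 (SE 0.46) for ccr-miR-551 and 0.08 (SE 0.52) for ipu-miR-551. In replicate numbers 1, 2 and 3 the AA to IGF1 ratios were 1.35, 1.37 and 2.22 for ccr-miR-551. They were 0.946, 0.798 and 1.49 for ipu-miR-551. The 2 log2 fold changes were 0.40 and -0.30 without AA replicate 1, and 1.15 and 0.62 without IGF1 replicate 1. That of ipu-miR-551 was also negative without IGF1 replicate 2 (-0.14) or IGF1 replicate 3 (-0.083).

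For IGF1 against CTR the log2 fold change was 0.15 (SE 0.47, 95% interval -0.89 to 1.18, adjusted p = 0.954) for ccr-miR-551 and 0.19 (SE 0.52, interval -0.96 to 1.34, adjusted p = 0.953) for ipu-miR-551 in edgeR's test. Within replicate numbers 1 and 2 the IGF1 to CTR ratios were 1.01 and 1.04 for ccr-miR-551 and 1.04 and 1.05 for ipu-miR-551. In replicate number 3 they were 1.59 and 1.74. Both log2 fold changes turned negative without CTR replicate 2 (-0.048 and -0.014), without CTR replicate 3 (-0.14 and -0.12) or without IGF1 replicate 1 (-0.34 and -0.35), and they were 0.82 and 0.93 without CTR replicate 1. These fits held group alone, so the replicate numbers were then unequal between the groups. The intervals, from the fit on group alone, hold changes of more than 1 log2 unit upward for either entry. With the replicate block the log2 fold changes were 0.15 for ccr-miR-551 and 0.19 for ipu-miR-551. The adjusted p there was 0.766 and 0.713 (edgeR's quasi-likelihood test), and no interval is given for that fit.

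**Figure D2:**
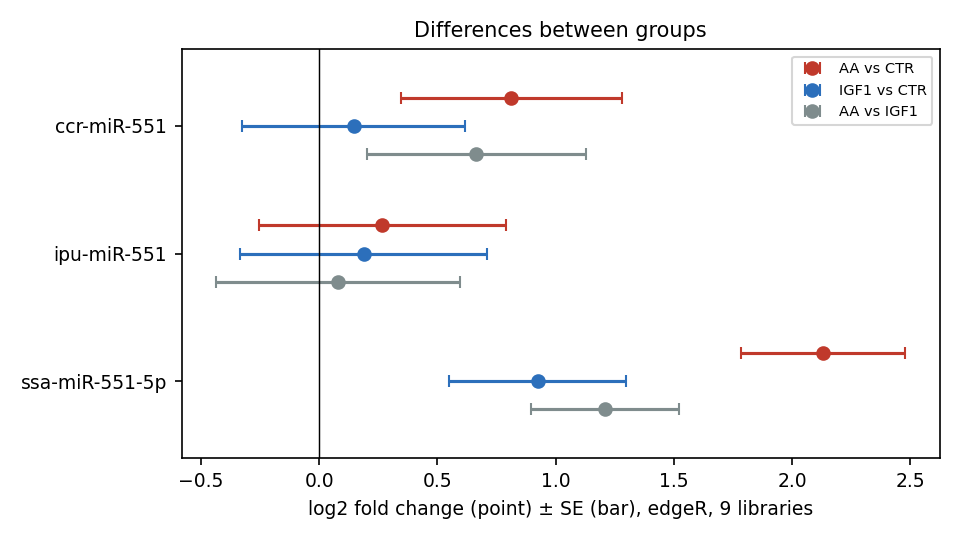
Log2 fold changes from edgeR (x axis, points) with standard errors (bars) for the 3 miR-551 profiles (y axis) in the contrasts of AA and IGF1 with CTR and of AA with IGF1, over 9 libraries. ssa-miR-551-5p stands at 2.13 for AA against CTR, and the bars of ipu-miR-551 cross 0 in all 3 contrasts. The bars come from the fit on group alone, so they include the spread between replicate numbers.

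The effect of the replicate number was then set beside that of treatment. In a joint test of the replicate numbers with the group in the model (edgeR quasi-likelihood F test over 1769 entries), ccr-miR-551 (adjusted p = 0.0027) and ipu-miR-551 (adjusted p = 0.00223) were called, and ssa-miR-551-5p was not (adjusted p = 0.212). The background was high, since 34.8% of all profiles were called in this test. ccr-miR-551 and ipu-miR-551 may also share reads, so their calls are not 2 separate observations. For ccr-miR-551 the replicate numbers 1, 2 and 3 had means of 192, 82.7 and 109 normalised counts, a highest to lowest ratio of 2.32 against 1.77 between group means. For ipu-miR-551 they had 133, 51.6 and 63.9, a ratio of 2.59 against 1.21. For ssa-miR-551-5p they had 33.4, 24.5 and 23.2, a ratio of 1.44 against 4.27. The last value is the AA to CTR ratio that the choice of the family favoured, so nothing is read from it.

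The variance on the log2 scale was split in the same way. Group held 86.2% of it for ssa-miR-551-5p, 30.3% for ccr-miR-551 and 5.34% for ipu-miR-551. The replicate number held 5.41%, 56.3% and 76.7%. Over all profiles the median was 25.2% for group and 49.3% for replicate number, and the replicate number held the larger share in 64.1% of them. The share of group in ssa-miR-551-5p, which the choice of the family favours, was above that of 98.1% of profiles. The share of replicate number in ipu-miR-551 was above that of 90.9%. Those of ccr-miR-551 lay above 63.7% of profiles for replicate number and above 59.8% for group. All 3 members varied more than most profiles, with SDs of 0.75, 0.72 and 0.95 (log2) for ccr-miR-551, ipu-miR-551 and ssa-miR-551-5p against a median of 0.22. That median is over profiles of all levels, and profiles as scarce as the members were not compared apart. The choice of the family also favours a high SD of ssa-miR-551-5p.

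**Figure D3:**
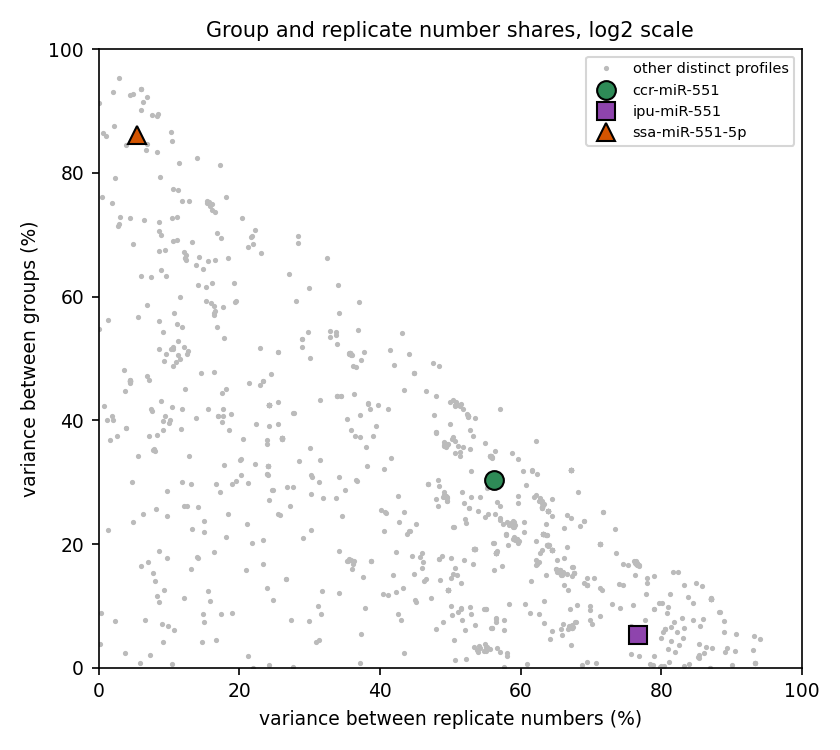
Share of the log2 variance between groups (y axis, %) against that between replicate numbers (x axis, %) for each distinct profile (grey points) and the 3 miR-551 profiles (large symbols). ssa-miR-551-5p lies at the upper left (86.2% and 5.41%) and ipu-miR-551 at the lower right (5.34% and 76.7%).

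Counting error could be set against the spread of replicates. For ssa-miR-551-5p the chi-square per degree of freedom of the reads within a group, given the size factors, was 1.12 in CTR, 2.69 in AA and 1.81 in IGF1, so that the spread in CTR was close to that of counting noise. Its 13, 8 and 10 reads in CTR had exact Poisson intervals (95%, counting error only) of 6.92 to 22.2, 3.45 to 15.8 and 4.80 to 18.4, and its 83, 41 and 38 reads in AA had 66.1 to 103, 29.4 to 55.6 and 26.9 to 52.2. For ccr-miR-551 the same ratio was 36.5, 26.3 and 28.2 in CTR, AA and IGF1, and for ipu-miR-551 it was 31.8, 21.2 and 25.5. The spread of these 2 entries was thus far above counting noise. What a replicate number marks is not stated in the labels. The marker lists were set beside it. The muscle-specific sum spanned 4461 to 15089 normalised counts in the libraries numbered 1, 5771 to 22688 in those numbered 2 and 7184 to 27162 in those numbered 3. The endothelial miR-126 spanned 9574 to 10805, 9929 to 10104 and 8473 to 9701. The white blood cell marker spanned 61.3 to 167 in the libraries numbered 3 and 21.1 to 27.9 in the others, and the red blood cell marker spanned 90.7 to 159 and 43.3 to 56.6. Neuronal markers (113 to 172) and epithelial markers (53.7 to 92.1) overlapped between the numbers. The part of these lists in the replicate differences of ccr-miR-551 and ipu-miR-551 was not tested.

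The balance of the arms was given by the ratio of ssa-miR-551-5p to ccr-miR-551. The 5p reads amounted to 7.30%, 10.3% and 27.0% of the 3p reads in CTR replicates 1, 2 and 3. They amounted to 26.2%, 43.2% and 21.8% in AA and to 15.4%, 29.7% and 16.7% in IGF1. The 3p arm was the more abundant in all 9 libraries. The log2 ratio (normalised counts plus 1) averaged -2.87 ± 0.95 over CTR, -1.76 ± 0.51 over AA and -2.29 ± 0.51 over IGF1 (SD, n = 3), and the groups overlapped. IGF1 and CTR differed by 0.58, which was within the spread (exact permutation test, two-sided, p = 0.4, where 20 splits allow no p below 0.1). The difference was 1.11 without CTR replicate 3 and 0.18 without CTR replicate 1. The choice of the family favoured high AA and low CTR values of ssa-miR-551-5p. The arm ratios and their test are therefore not free of it.

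The ratio of ipu-miR-551 to ccr-miR-551 was lower in the AA libraries. It was looked at after the counts had been seen, and no pair of entries outside miR-551 was examined in this way, so how often such a ratio parts AA from the others is not known. The reads of ipu-miR-551 amounted to 77.5%, 74.4% and 67.6% of those of ccr-miR-551 in CTR replicates 1, 2 and 3. They amounted to 55.8%, 44.2% and 49.4% in AA. They amounted to 79.6%, 75.7% and 73.6% in IGF1. All 3 AA libraries lay below all 6 others, and the CTR and IGF1 libraries overlapped. The log2 ratio averaged -0.45 ± 0.10 over CTR, -1.002 ± 0.16 over AA and -0.39 ± 0.06 over IGF1 (SD, n = 3), a difference of -0.56 between AA and CTR. It was given no test, since AA against CTR chose the family. IGF1 and CTR differed by 0.06 (exact permutation test, two-sided, p = 0.5, where no p below 0.1 is possible). It was higher in IGF1 within each of the 3 replicate numbers, and with the replicate block the exact permutation p was 0.25, the smallest that 8 arrangements allow.

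The difference of ccr-miR-551 and ipu-miR-551, computed from the same values as their ratio and so no separate observation, was 38.4, 18.4 and 17.3 normalised counts in CTR, 103, 56.8 and 95.3 in AA, and 35.2, 18.1 and 22.4 in IGF1. Its CTR mean was 24.7 ± 11.9, its AA mean 85.0 ± 24.8 and its IGF1 mean 25.2 ± 8.87 (SD, n = 3). The sources used here do not state how a read matching both entries was counted. The equal values of ccr-miR-551 and ssa-miR-551-3p in all libraries show that reads can be counted under several names. Reads matching both ccr-miR-551 and ipu-miR-551 may thus stand in both, so the difference is of 2 table values and not a count of reads of 1 kind.

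**Figure D4:**
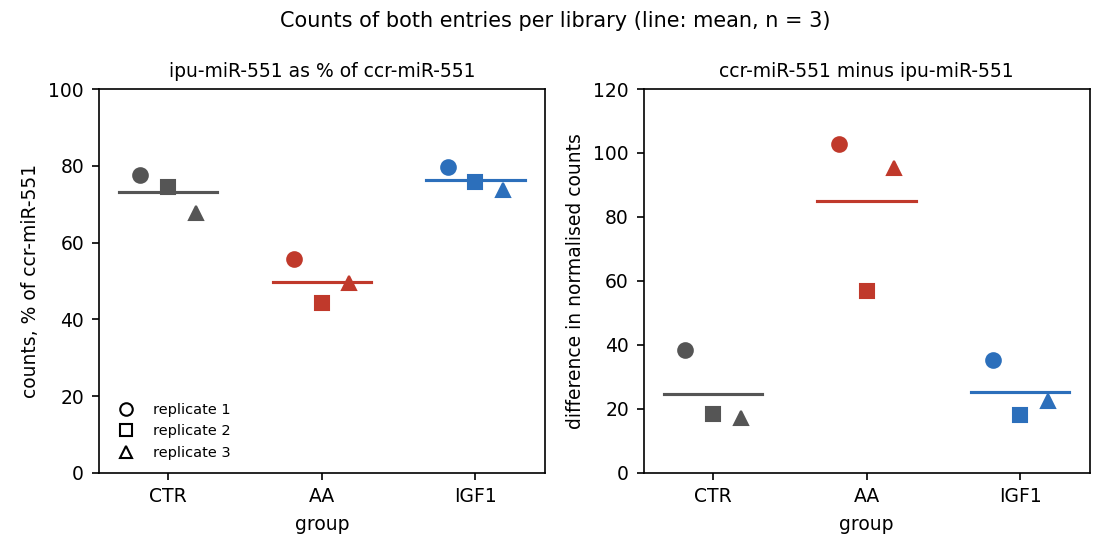
Reads of ipu-miR-551 as a percentage of those of ccr-miR-551 (left, y axis from 0) and the difference of their normalised counts (right, y axis from 0) in each library by group (x axis), with symbols for the replicate number and lines for the mean (n = 3). AA spans 44.2% to 55.8% on the left and 56.8 to 103 on the right, apart from CTR and IGF1 in both.

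Other miRNAs were ranked by Pearson correlation with each arm over the 9 libraries (log2 scale, the best profile of each miRNA number), as a description of libraries that share groups, depth and replicate numbers. Closest to ssa-miR-551-5p were ssa-miR-125a-2-3p (0.893), dre-miR-26a-3p (0.871), ssa-miR-206-5p (0.864), gmo-let-7h-2-3p (0.855) and dre-miR-133b-3p (0.849). Of these, miR-206 and miR-133 are muscle-specific. The choice of the family favoured high AA values of ssa-miR-551-5p, and so favoured profiles high in AA in this ranking. Nothing is therefore read from the muscle-specific names. Group held 62.1% (gmo-let-7h-2-3p) to 92.7% (dre-miR-26a-3p) of the variance of these 5. ssa-miR-206-5p was scarce, with a mean of 12.0 normalised counts. After the group means were removed, gmo-let-7h-2-3p kept a correlation of 0.795, and the others lay between -0.22 and 0.07. Closest to ccr-miR-551 were dre-miR-20a-3p (0.939), dre-miR-93 (0.909), abu-miR-3120 (0.884), gmo-miR-33b-5p (0.860) and abu-miR-194a (0.848). miR-20a and miR-93 come from the related miR-17 clusters, known for their part in cell proliferation, and miR-33 lies within genes of sterol regulation. After the group means were removed these 5 stayed between 0.832 and 0.939, and the replicate number held 27.1% to 76.9% of their variance. Only the best profile of each number is given, and other entries of a number can be alike or differ. The replicate number held 69.9% for ccr-miR-20a-3p against 66.2% for dre-miR-20a-3p, but 6.81% for abu-miR-93 against 51.6% for dre-miR-93.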

How the data were processed

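Small RNA was sequenced from 9 myotube libraries (CTR, AA and IGF1, 3 each). The authors checked reads with FastQC 0.11.8, trimmed them with Trimmomatic, mapped them with Bowtie2 to mature miRNAs of 13 teleosts and deposited raw counts per entry. The deposited normalised counts are a signal, the counts divided by 1 DESeq2 size factor per library, kept where an entry averaged 10 counts or more. The raw counts went without change into edgeR 4.0.16 under R 4.3.3 (TMM, quasi-likelihood test, group alone, all 9 libraries, Benjamini-Hochberg adjustment over 1769 entries), with calls at an adjusted p up to 0.05 and a log2 fold change of 0.55 or more in size. DESeq2 1.42.0 was an alternative. The fit was tested on simulated data. Variance shares and ratios used log2 (normalised count plus 1).

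The members and lists were chosen with earlier results of these data known. All distinct miR-551 profiles are named, and for each arm the 5 miRNA numbers whose best profile correlates most with it. Deviations from group means over 953 profiles correlated between libraries with the same replicate number (0.273 to 0.558, 9 pairs) and less between others (-0.475 to 0.149, 18 pairs), so the numbers were taken to pair the libraries from the data, not the labels. Deviations cancel within a group, so positive values for the same number push the others down. The lower values of the others are therefore no separate sign of pairing. Alternatives covered the tool, the normalisation factors, the filter, distinct profiles, the 2 groups alone, the replicate block, the call rule, pseudocounts and each library left out.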

Additional observations from a re-analysis of the deposited data

How the results depend on the processing

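Counts here are of miR-551 profiles called. Those for the AA contrasts rest on the values that chose the family and say nothing of stability. For AA against CTR the count was 1, also with 1 library left out. It was 2 with the replicate block and 2 with DESeq2 and the replicate block, and 0 with a mean of at least 50 counts, where ssa-miR-551-5p was not tested. For AA against IGF1, 0 were called and 0 in each fit that left out 1 library. It was 1 with DESeq2, the replicate block, DESeq2 with the replicate block, upper-quartile factors, no composition factors, or the replicate block on distinct profiles (added after the data were seen). The profile was ssa-miR-551-5p, except with DESeq2 and the replicate block, where it was ccr-miR-551. The cause was not tested. For IGF1 against CTR, 0 were called under every alternative, and for the replicate number 2 (ccr-miR-551 and ipu-miR-551) under every alternative.

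Fold changes with 1 library left out came from fits on group alone, where the replicate numbers were then unequal between groups. Leaving out 1 library, the log2 fold change of ssa-miR-551-5p for AA against CTR ran from 1.87 to 2.29. For IGF1 against CTR that of ccr-miR-551 ran from -0.34 to 0.82 and that of ipu-miR-551 from -0.35 to 0.93. For ipu-miR-551 it ran from -0.094 to 1.03 in AA against CTR and from -0.30 to 0.62 in AA against IGF1. For ccr-miR-551 the AA contrasts ran from 0.53 to 1.51 (CTR) and from 0.40 to 1.15 (IGF1). The differences of the arm and entry ratios ran from 0.18 to 1.11 and from 0.0066 to 0.10 (log2, IGF1 against CTR), where the exact test cannot reach 0.05 and so its p says nothing of stability. Variance shares kept within 1.5 times under both other pseudocounts and TMM values. The replicate block changed no other call. At 8 to 83 reads per library, counting error limits the precision of ssa-miR-551-5p, most in CTR, where the spread of libraries was closest to it.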
